A study of Mus musculus with 41 samples.

Results

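Of the 14738 Foxa2 peaks of rib chondrocytes, 388 (2.63%) lay where Runx2 was also found in both chondrocytes and osteoblasts. They were chosen by measured positions: each had to share at least 1 bp with a peak of the chondrocyte Runx2 list and at least 1 bp with a peak of the osteoblast Runx2 list. A further 2449 Foxa2 peaks (16.6%) met chondrocyte Runx2 alone, 125 (0.848%) met osteoblast Runx2 alone and 11776 (79.9%) met neither. Presence in these 3 lists, and the widths, positions and file order of their peaks, are therefore described without a test. The lists of Jun and of 3T3 cells took no part in the choice and were tested.

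The study mapped transcription factors and open chromatin in mouse skeletal cells, with 41 samples in 24 groups. The 8 deposited ChIP-seq peak lists hold 155773 peaks. Runx2 was precipitated by its FLAG tag from C57BL/6 mice at postnatal day 1 that carried the heterozygous Runx2-BioFL/+ knock-in. Rib chondrocytes gave 2 Runx2 libraries and calvarial osteoblasts another 2, with 1 deposited list for each cell type. Foxa2 (1 library, rib chondrocytes) and Jun (1 library, calvarial osteoblasts) were precipitated from wild-type C57BL/6 mice of the same age. The 3T3 cells, a mouse fibroblast line, overexpressed either Runx2BioFL or GFP, and FLAG was precipitated at day 0 and at day 3 of an osteogenic medium with ascorbic acid phosphate, β-glycerophosphate and 100 ng/ml of BMP-2, a bone-inducing growth factor (1 library each). GFP cells carry no tagged Runx2 by their label. A doubt concerns the names of 2 lists: the sample of GFP cells at day 3 cites the list named for Runx2 day 0, and the sample of Runx2 cells at day 0 cites the list named for GFP day 3. Both are used here under their own names. Chondrocytes were taken from ribs, and osteoblasts from a calvarial piece enriched for them (frontal bone and rostral parietal bone), so the type of cell and its place in the skeleton cannot be told apart. Foxa2 was not precipitated from osteoblasts, nor Jun from chondrocytes. The files hold no expression values, so the labelled cell types could not be checked against marker genes.

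Runx2 is a runt-domain transcription factor that binds DNA with its partner CBFB; osteoblasts do not form without it, and it also promotes the maturation of chondrocytes to hypertrophy. Foxa2 is a forkhead factor known for its ability to bind closed chromatin in endoderm and liver, and with its relative Foxa3 it takes part in the hypertrophic differentiation of chondrocytes. Jun is a subunit of AP-1, a dimeric factor that acts in osteoblasts and in many other cell types.

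The rule asked each Foxa2 peak to overlap both Runx2 lists, so the closeness of the 3 peaks at the 388 sites follows largely from the choice. It is given as a description. At 385 of the sites the Foxa2 peak met exactly 1 chondrocyte and 1 osteoblast Runx2 peak, and at 384 (99.0%) all 3 peaks had a base in common. The partners were 380 chondrocyte Runx2 peaks (2.47% of 15390) and 381 osteoblast Runx2 peaks (3.72% of 10241). Because 15 of the 388 Foxa2 peaks overlapped another of the 388, merging peaks that overlap or touch left 380 sites.

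The Foxa2 peaks themselves were short, with a median of 127 bp (quartiles 103 and 169, range 39 to 495). The Foxa2 peaks with chondrocyte Runx2 alone had a median of 123 bp, those with osteoblast Runx2 alone 120 bp and those with neither 119 bp. Their Runx2 partners had medians of 134 bp in chondrocytes and 170.5 bp in osteoblasts. The median overlap was 89 bp with the chondrocyte peak, 92 bp with the osteoblast peak and 74 bp for the stretch held by all 3.

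The distance between the centres of the Foxa2 and Runx2 peaks had a median of 44.75 bp in chondrocytes and 58.5 bp in osteoblasts. Both Runx2 centres were nearer to each other, at a median of 29 bp. The Foxa2 centre was nearer to the chondrocyte Runx2 centre at 245 sites (63.1%) and nearer to the osteoblast one at 142 (36.6%). The osteoblast Runx2 partners were wider (median 170.5 bp against 134 bp), and under the rule the centre of a wider peak can lie further away. How far width accounts for the difference was not tested. At 310 sites (79.9%) both Runx2 centres lay on the same side of the Foxa2 centre. The span from the first to the last of the 3 centres had a median of 72.5 bp (range 2 to 315.5), and was at most 25 bp at 36 sites, at most 50 bp at 122 (31.4%) and at most 100 bp at 276 (71.1%). Foxa2 peaks with chondrocyte Runx2 alone had nearly the same Foxa2 to Runx2 distance, at a median of 44.5 bp, while those with osteoblast Runx2 alone had 83 bp.

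**Figure D1:**
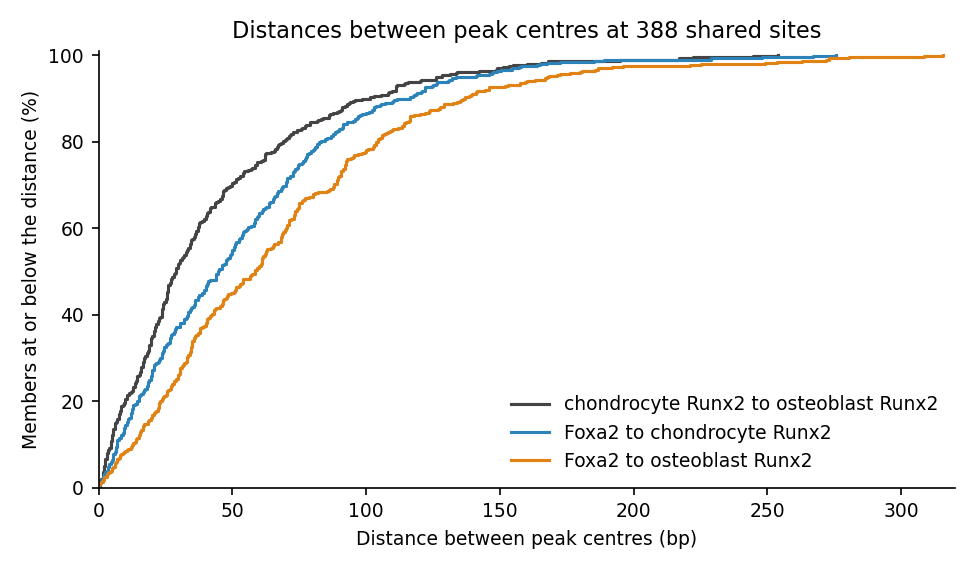
Distances in bp between peak centres at the 388 Foxa2 sites with Runx2 of both cell types. Median distances were 44.75 bp from Foxa2 to chondrocyte Runx2, 58.5 bp from Foxa2 to osteoblast Runx2 and 29 bp between the Runx2 centres.

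The tightest site was chr1:163970211-163970323 (build mm9, 113 bp), where the centres spanned 2 bp and both Runx2 peaks covered the whole Foxa2 peak. At chr13:29200162-29200288 the span was 7 bp, and no other list had a peak there. The widest Foxa2 peak was chr7:97208096-97208590 (495 bp, span 180 bp), which both 3T3 lists named for Runx2 also met. At chr19:21179289-21179751 (463 bp) the centres reached the widest span of all, 315.5 bp, although 114 bp were held by all 3 peaks. The widest of the peaks that met no further list was chr9:41626191-41626606 (416 bp), with 12 bp in the chondrocyte and 9 bp in the osteoblast Runx2 peak. Gene names and bases are not given for these places, since a genome and annotation of build mm9 were not used here.

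Some sites only just met the rule. The Foxa2 peaks chr5:107866751-107866876, chr5:150192340-150192427 and chr6:51112504-51112687 each shared 1 bp with the chondrocyte Runx2 peak and 40, 35 and 50 bp with the osteoblast one. Just outside, chr4:147603819-147603934 and chr15:59416853-59417083 met osteoblast Runx2 and touched a chondrocyte Runx2 peak with 0 bases between them, and at chr1:120824829-120824918 the gap was 1 base. Of the 125 Foxa2 peaks with osteoblast Runx2 alone, 30 (24.0%) lay within 250 bp of a chondrocyte Runx2 peak, whereas 35 of the 2449 with chondrocyte Runx2 alone lay that near to an osteoblast one.

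In the deposited order, these sites stood early in the Foxa2 and chondrocyte Runx2 lists and late in the osteoblast Runx2 list. What set the order of peaks in a file is not given in the sources, and it is used only as a position. In the Foxa2 list the 388 sites had a median position of 2338, against 4048 for Foxa2 peaks with chondrocyte Runx2 alone, 4330 with osteoblast Runx2 alone and 8186 with neither. Of the first 1474 Foxa2 peaks, 154 (10.4%) were among the 388, and of the last 1473 only 11 (0.747%) were. Among Foxa2 peaks that met chondrocyte Runx2 at all, the share that also met osteoblast Runx2 was 21.9% in the first of 10 equal parts of the list and between 7.74 and 13.3% in the other 9 parts.

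Their chondrocyte Runx2 partners stood near the top of the chondrocyte list, at a median position of 1268.5 of 15390 (quartiles 393 and 3541). The partners of Foxa2 peaks with chondrocyte Runx2 alone had a median of 7457. The first of 10 equal parts of the chondrocyte list held the partners of 218 of the 388 sites (56.2%) and of 10.6% of the Foxa2 peaks with chondrocyte Runx2 alone.

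In the osteoblast list the same sites stood late, as did Foxa2 peaks with osteoblast Runx2 alone, whose partners had a median position of 6630 (quartiles 3732 and 8611). The partners of the 388 sites had a median position of 6589.5 of 10241 (quartiles 3804 and 8363), 26 sites (6.70%) fell in the first of 10 parts and 246 (63.4%) in the second 50% of the list. Relative to list length, 360 of the 388 sites (92.8%) were earlier in the chondrocyte than in the osteoblast list. At 224 sites (57.7%) the chondrocyte peak was in the first 50% of its list and the osteoblast peak in the second 50%. An example is chr3:122767321-122767428, the earliest of the 388 in the Foxa2 list (position 2), which stood at position 137 in the chondrocyte list and 6342 in the osteoblast list. The site chr13:29200162-29200288 was at position 34 for chondrocyte Runx2 and 5093 for osteoblast Runx2.

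Runx2 peaks common to both cell types but free of Foxa2 did not have this imbalance to the same degree. There were 4608 chondrocyte Runx2 peaks that overlapped an osteoblast one, 402 with a Foxa2 peak and 4206 without. Of those with Foxa2, 367 (91.3%) were relatively earlier in the chondrocyte list, and of those without, 2400 (57.1%). The pairing of an early chondrocyte with a late osteoblast position (first 50% and second 50%) was found in 57.2% with Foxa2 and 20.4% without, and the reverse pairing in 1.99% and 10.6%. Along the chondrocyte list the share of common Runx2 peaks that met Foxa2 went from 20.9% in the first of 10 parts to 1.92% in the ninth and 6.14% in the tenth. Along the osteoblast list it went the other way, from 3.81% in the first part to 17.8% in the ninth and 16.1% in the tenth. These are descriptions, since all 3 lists entered the rule.

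**Figure D2:**
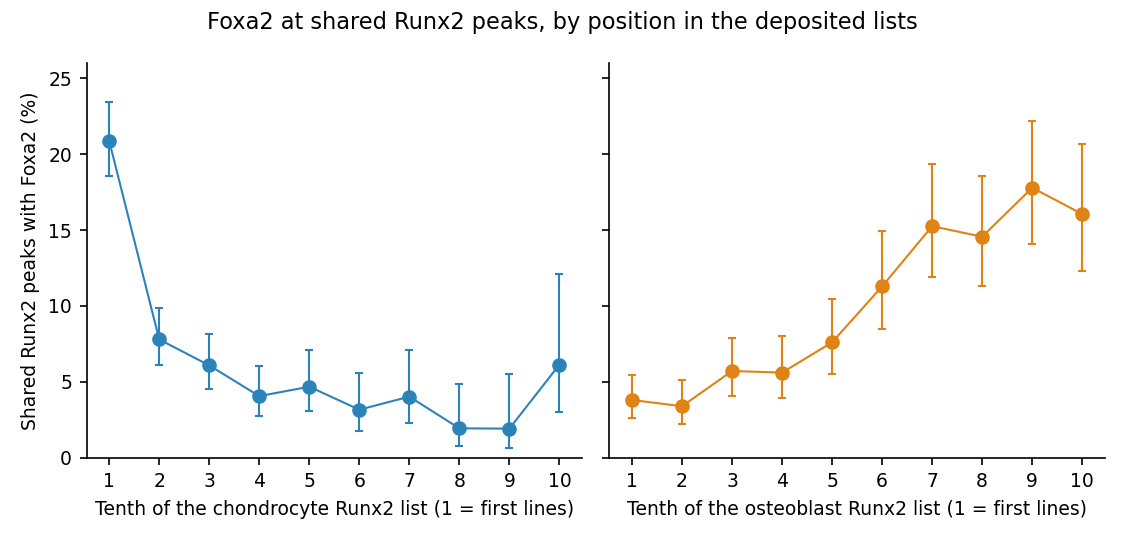
Share (percent, 95% Wilson interval) of Runx2 peaks common to both cell types that overlapped Foxa2, by 10 equal parts of the chondrocyte and of the osteoblast Runx2 list in file order. The share was highest in the first part of the chondrocyte list (20.9%) and in the ninth part of the osteoblast list (17.8%).

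A related count compared chondrocyte Runx2 peaks with and without Foxa2 within the same part of the chondrocyte list. In the first part 47.0% of the peaks with Foxa2 (220 of 468) and 77.9% of those without (834 of 1071) overlapped osteoblast Runx2. In the last part the shares were 2.94% (7 of 238) and 8.22% (107 of 1301). The share was lower with Foxa2 in each of the 10 parts.

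The other 5 lists showed which of these sites recurred elsewhere. Jun of osteoblasts was present at 57 of the 388 (14.7%, 11.5 to 18.6%), against 1.87% of all Foxa2 peaks. It was present at 80 of the 2449 Foxa2 peaks with chondrocyte Runx2 alone (3.27%), so the sites with Runx2 of both cell types met Jun more often (odds ratio 5.09, 95% interval 3.49 to 7.40, adjusted p = 1.88e-16, Fisher's exact test, two-sided, Benjamini-Hochberg over 10 tests). The share was higher on 18 of 20 chromosomes, lower on 1 and equal on 1. With osteoblast Runx2 alone 8.80% of Foxa2 peaks met Jun, and with neither 1.08%.

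Each list named for Runx2 in 3T3 fibroblasts met most of the sites, but these lists also met many chondrocyte Runx2 peaks in general. Of all 15390 chondrocyte Runx2 peaks, 52.7% met the Runx2 day 3 list and 48.2% the Runx2 day 0 list, whose name is in doubt. Of the 4608 that overlapped an osteoblast Runx2 peak, 74.1% and 72.1% did, so the 388 sites lay below these. The list named for Runx2 day 3 met 226 of the 388 (58.2%, 53.3 to 63.1%), against 10.8% of all Foxa2 peaks and 555 of 2449 (22.7%) with chondrocyte Runx2 alone. This gave an odds ratio of 4.76 (interval 3.79 to 5.99, adjusted p = 1.69e-42 by Fisher's exact test). The list named for Runx2 day 0 met 198 (51.0%, 46.1 to 56.0%), against 7.08% of all Foxa2 peaks and 387 of 2449 (15.8%) with chondrocyte Runx2 alone. The odds ratio was 5.55 (interval 4.39 to 7.01, adjusted p = 4.65e-47 by Fisher's exact test). Both shares were higher at the 388 sites on 20 of 20 chromosomes. Foxa2 peaks with osteoblast Runx2 alone had shares of 33.6% at day 3 and 18.4% at day 0, and those with neither 6.51% and 3.70%.

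The control lists of 3T3 cells with GFP reached few of the sites. Of all 15390 chondrocyte Runx2 peaks, 2.86% met the GFP day 0 list and 13.6% the GFP day 3 list, whose name is in doubt. Of the 4608 that overlapped an osteoblast Runx2 peak, 5.62% and 22.9% did, so the 388 sites lay below these. The list named for GFP day 0 met 10 of the 388 (2.58%, 1.41 to 4.68%), against 0.224% of all Foxa2 peaks and 2 of 2449 (0.0817%) with chondrocyte Runx2 alone. Against the latter the odds ratio was 32.3 (interval 6.84 to 304, adjusted p = 1.32e-07 by Fisher's exact test), with a higher share on 8 chromosomes and an equal one on 12. The list named for GFP day 3 met 9 (2.32%, 1.23 to 4.35%), against 0.665% of all Foxa2 peaks and 11 of 2449 (0.449%). The odds ratio was 5.26 (interval 1.91 to 14.1, adjusted p = 0.000707 by Fisher's exact test). Its share was higher on 7 chromosomes, lower on 2 and equal on 11. The wide intervals come with these few overlaps, and on the chromosomes with equal shares neither class met the GFP list.

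**Figure D3:**
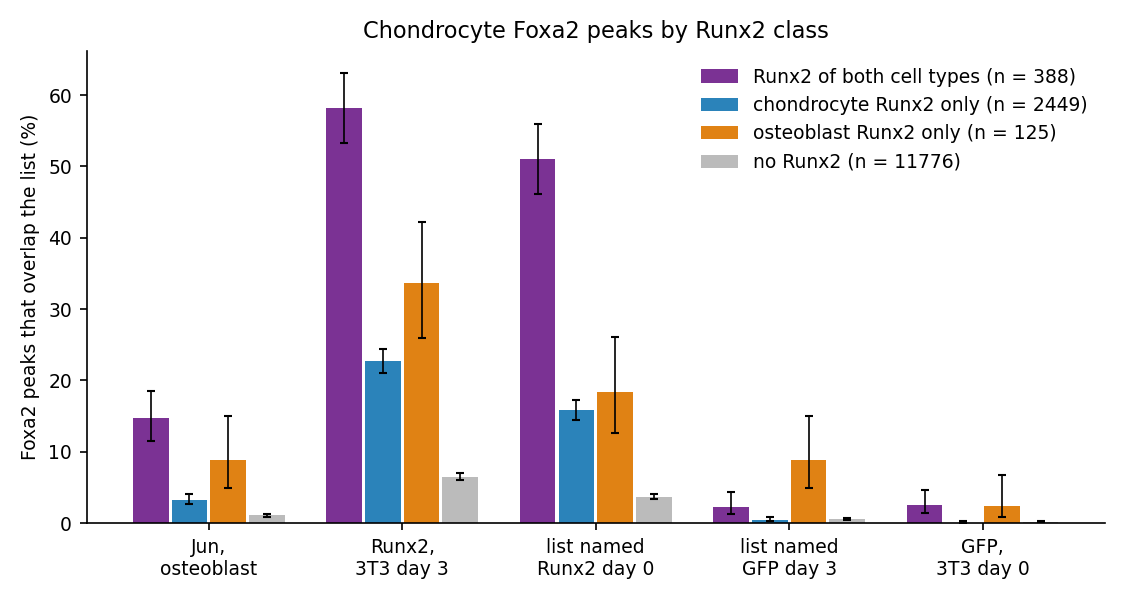
Share of Foxa2 peaks (percent, 95% Wilson interval) that overlapped each of the 5 other lists, for 4 classes of Foxa2 peaks by Runx2 overlap. Sites with Runx2 of both cell types had 58.2% in the list named for 3T3 Runx2 day 3 and 14.7% with Jun, against 22.7% and 3.27% with chondrocyte Runx2 alone.

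With the 2 doubtful names exchanged, the shares of 51.0% and 2.32% and the odds ratios of 5.55 and 5.26 change places between Runx2 day 0 and GFP day 3. All these tests cover counting error only: each group had 1 list, so the spread between animals or cultures was not measured, and neighbouring peaks are not independent. When the peaks were compared within 10 parts of the chondrocyte list by the position of their Runx2 partner, an alternative chosen after seeing the data, the odds ratio was 4.76 for Jun, 2.96 for Runx2 day 3, 3.43 for Runx2 day 0 and 2.22 for GFP day 3, the last no longer past the threshold (Mantel-Haenszel). With the wider 50% of each list, which left 51 sites, the odds ratio was 3.73 for Jun (adjusted p = 0.0723, Fisher's exact test) and 2.48 for Runx2 day 3 (adjusted p = 0.0156, Fisher's exact test). For Runx2 day 0 it was 6.06 under this setting (adjusted p = 1.15e-06, Fisher's exact test). Across the alternatives the odds ratio ranged from 12.2 to 42.5 for GFP day 0, and for GFP day 3 from 11.1 down to 0 in the first 50% of each list.

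Seen from Runx2, the presence of Foxa2 went with fewer other lists. It also went with an earlier position in the chondrocyte list and a later one in the osteoblast list. Jun met 63 of the 402 common Runx2 peaks with Foxa2 (15.7%, 12.4 to 19.5%) and 1363 of the 4206 without (32.4%), where the share over all chondrocyte Runx2 peaks was 17.8%. The odds ratio was 0.388 (interval 0.289 to 0.513, adjusted p = 4.79e-13 by Fisher's exact test), and the share was lower with Foxa2 on 19 of 20 chromosomes. Thus Jun was more frequent at the 388 sites than at other Foxa2 peaks with chondrocyte Runx2, yet less frequent there than at Runx2 peaks of both cell types without Foxa2.

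Runx2 of 3T3 cells followed the same order. The list named for Runx2 day 3 met 238 of 402 (59.2%) with Foxa2 and 3175 of 4206 (75.5%) without, against 52.7% of all chondrocyte Runx2 peaks. This gave an odds ratio of 0.471 (interval 0.380 to 0.586, adjusted p = 1.48e-11 by Fisher's exact test), with a lower share on 18 of 20 chromosomes. The list named for Runx2 day 0 met 209 of 402 (52.0%) and 3112 of 4206 (74.0%), against 48.2% of all. The odds ratio was 0.381 (interval 0.308 to 0.471, adjusted p = 9.31e-19 by Fisher's exact test), with a lower share on 19 of 20. With Foxa2, both shares were lower by 16.3 and 22.0 percentage points.

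The largest proportional gap was in the list named for GFP day 3. It met 15 of the 402 common Runx2 peaks with Foxa2 (3.73%, 2.27 to 6.06%) and 1040 of the 4206 without (24.7%), against 13.6% of all chondrocyte Runx2 peaks. The odds ratio was 0.118 (interval 0.0651 to 0.198, adjusted p = 3.92e-28 by Fisher's exact test), with a lower share on 20 of 20 chromosomes. GFP day 0 met 10 of 402 (2.49%) and 249 of 4206 (5.92%), against 2.86% of all. For GFP day 0 the odds ratio was 0.405 (interval 0.190 to 0.767, adjusted p = 0.00296 by Fisher's exact test), with a lower share on 18 of 20. With the crossed names exchanged, the values 0.118 and 0.381 change places.

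**Figure D4:**
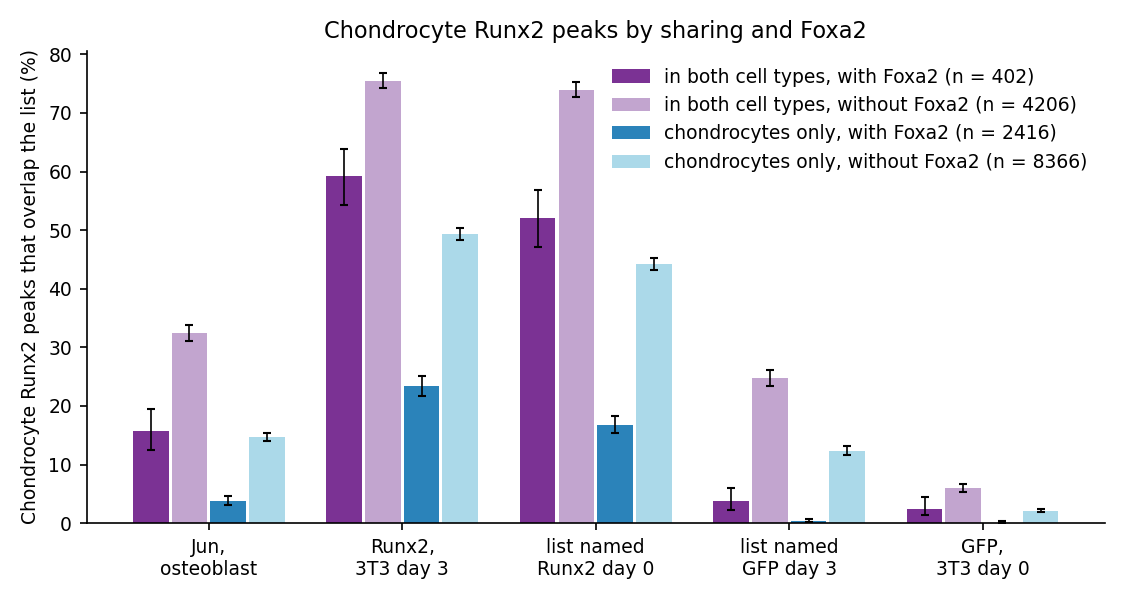
Share of chondrocyte Runx2 peaks (percent, 95% Wilson interval) that overlapped each of the 5 other lists, split by osteoblast Runx2 and by Foxa2. Among peaks common to both cell types, 15.7% with Foxa2 and 32.4% without overlapped Jun, and 3.73% and 24.7% overlapped the list named for GFP day 3.

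Several of these differences depended on which part of the lists was used. With the wider 50% of each list the odds ratios were 0.842 for Runx2 day 3, 0.904 for Runx2 day 0 and 0.413 for Jun, and none of these 3 passed the threshold (adjusted p = 0.756, 0.772 and 0.117, Fisher's exact test). With the lists cut to their first 50% the odds ratio for Jun was 0.688 (adjusted p = 0.184, Fisher's exact test), and for GFP day 0 the call was lost under 4 alternatives, with odds ratios of 0 to 0.723. GFP day 3 passed the threshold under all 12 alternatives run for it, with odds ratios of 0 to 0.381. The value of 0.381 comes from the exchange of the doubtful names and was fixed in advance as that of Runx2 day 0. The highest of the other alternatives was 0.167. Peaks were also compared within 10 parts of the osteoblast list by their partner's position (Mantel-Haenszel, chosen after seeing the data). All odds ratios then lay nearer to 1. They were 0.488 for Jun, 0.601 for Runx2 day 3, 0.466 for Runx2 day 0 and 0.167 for GFP day 3, still past the threshold. For GFP day 0 it was 0.723, not past the threshold.

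The 388 sites combined the 5 other lists unevenly. Both lists named for 3T3 Runx2 met 168 of them (43.3%), the day 3 list without day 0 met 58 (14.9%), the day 0 list without day 3 met 30 (7.73%) and neither met 132 (34.0%). Jun and both of these lists came together at 29 sites (7.47%), and Jun without either at 15 (3.87%). No list beyond the 3 of the rule was present at 115 sites (29.6%, 25.3 to 34.4%). The corresponding share was 72.2% for Foxa2 peaks with chondrocyte Runx2 alone, 56.8% with osteoblast Runx2 alone and 91.2% with neither.

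Within the 388 sites, Jun and 3T3 Runx2 were not shown to go together. Jun was present at 42 of 256 sites with a 3T3 Runx2 peak (16.4%) and at 15 of 132 without (11.4%), a difference of 5.04 points with a 95% interval of -2.64 to 11.7 (odds ratio 1.53, interval 0.791 to 3.10, adjusted p = 0.316 over 3 tests by Fisher's exact test). Read the other way, 38 of 57 sites with Jun (66.7%) and 188 of 331 without (56.8%) met the day 3 list, and 33 of 57 (57.9%) and 165 of 331 (49.8%) met the day 0 list, both with an adjusted p of 0.316 (Fisher's exact test). These 3 tests were chosen after seeing the data. A p that misses the threshold does not show that the shares were equal.

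The share with Jun was higher where the osteoblast partner stood early in its list. Of the 142 sites whose osteoblast Runx2 peak was in the first 50% of its list, 32 met Jun (22.5%, 16.4 to 30.1%), and of the 246 in the second 50%, 25 did (10.2%, 6.98 to 14.6%). The share in the Runx2 day 3 list was 66.2% and 53.7%, and in the day 0 list 57.0% and 47.6%. GFP day 0 met 9 of the former and 1 of the latter, and GFP day 3 met 8 and 1. Sites with Jun had a median osteoblast position of 4550, against 6861 without Jun, while their median chondrocyte positions were 1351 and 1215. By position in the Foxa2 list the shares lay closer together. Jun met 16.9% of the 154 sites in the first of its 10 parts and 13.2% of the other 234, and Runx2 day 3 met 59.1% and 57.7%. No test was made of these splits.

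Under the names as deposited, the 13 sites (3.35%) that met a GFP list differed from the rest in their median positions. They had a median position of 270 in the chondrocyte Runx2 list and 241 in the osteoblast list, but 4886 in the Foxa2 list. The 375 sites in no GFP list had medians of 1296, 6670 and 2263. Thus the sites in a GFP list stood earlier in both Runx2 lists and later in the Foxa2 list than the remaining sites, with Foxa2 quartiles of 654 and 11151 and a median still ahead of that of all Foxa2 peaks (7369.5). For the 10 sites met by GFP day 0 the medians were 58, 34 and 7786.5.

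Among them, chr15:72399073-72399172 stood at position 1 in the chondrocyte list and 2 in the osteoblast list, at 12668 in the Foxa2 list, and was met by all 5 other lists. The site chr15:84659918-84660106 was at position 6 in both Runx2 lists and 9872 in the Foxa2 list, and was also met by all 5. These were the only 2 sites of the 388 in all 5 other lists. The site chr2:33946225-33946317 was at positions 7, 22 and 13252, and met Jun, Runx2 day 3 and both GFP lists. At chr4:133576673-133576805, where the 3 centres spanned 3.5 bp, the positions were 37, 27 and 11151. Other sites in a GFP list stood early in the Foxa2 list. Examples are chr3:21834876-21835173 at positions 1351, 4049 and 654, and chr5:138612165-138612258 at 2606, 1610 and 383. Without the 13 sites and all other peaks that met a GFP list, the odds ratio against chondrocyte Runx2 alone was 4.99 for Jun, 4.65 for Runx2 day 3 and 5.68 for Runx2 day 0.

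The sites were spread over the genome, from 4 on chromosome X to 33 on chromosome 9, and none on chromosome Y. They made up 1.21% of the Foxa2 peaks of chromosome 2 and 3.83% of those of chromosome 9, the lowest and highest share with chromosome Y left aside. The nearest other site lay at a median of 1.23 Mb, and 65 sites (16.8%) had one within 100 kb, 37 of them within 10 kb. In windows of 100 kb, 324 held 1 site, 27 held 2, 2 held 3 and 1 held 4.

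Other Runx2 peaks were frequent around them. Beside the overlapping peaks, a median of 2 further chondrocyte and 1 further osteoblast Runx2 peaks lay within 50 kb of a site, against 1 and 0 for Foxa2 peaks with chondrocyte Runx2 alone. The median number of peaks of the list named for Runx2 day 3 within 50 kb was 6 and 3, and that of other Foxa2 peaks 1.5 and 2. Foxa2 peaks with osteoblast Runx2 alone had medians of 2 further chondrocyte and 2 further osteoblast Runx2 peaks, so the crowding was not found at the 388 sites alone.

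The window with 4 sites was chr9:120600128-120655034. At one end 2 Foxa2 peaks overlapped each other, at -27.3 and -27.2 kb from the middle of the stretch. They met the same chondrocyte and the same osteoblast Runx2 peak, so they are a single place when merged. The other 2 sites lay at 21.1 and 27.3 kb. The 100 kb from the first site onward held 9 Foxa2, 5 chondrocyte Runx2, 4 osteoblast Runx2, 2 Jun, 16 Runx2 day 3 and 7 Runx2 day 0 peaks and no GFP peak. Next came chr1:174455218-174455518, where 3 Foxa2 peaks that overlapped each other in a stretch of 0.301 kb shared the same pair of Runx2 peaks. The window chr15:27447915-27526822 had 3 sites in 78.9 kb. Windows of 2 sites included chr2:27790001-27795206 and chr3:108562696-108570692.

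**Figure D5:**
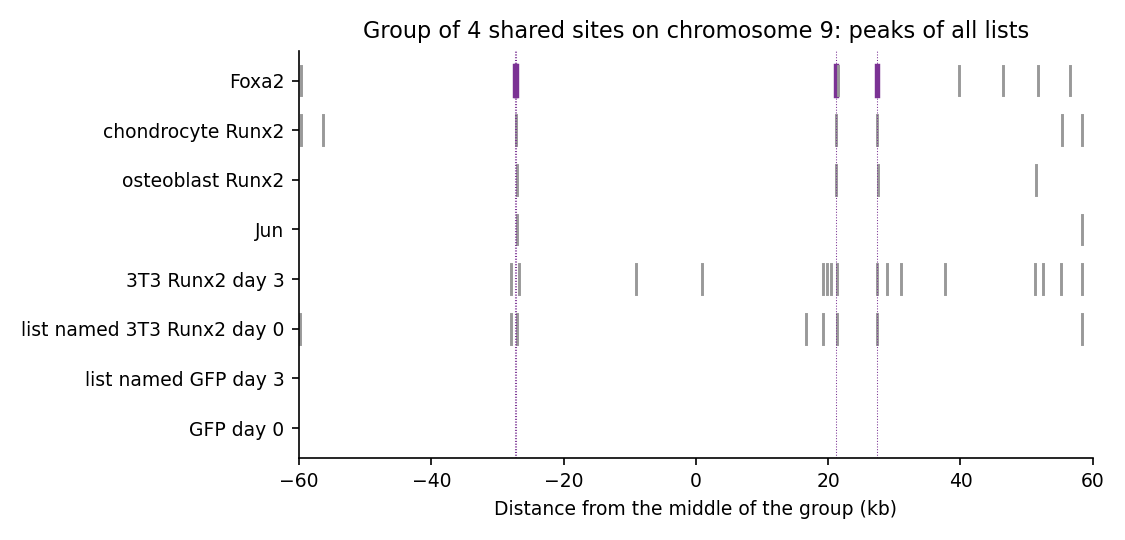
Peak centres of all lists around chr9:120600128-120655034, in kb from the middle of that stretch, with the 4 sites marked in the Foxa2 row. The sites lie at -27.3, -27.2, 21.1 and 27.3 kb, each with a chondrocyte and an osteoblast Runx2 peak beside it. The Foxa2 peaks at -27.3 and -27.2 kb overlap each other and share their Runx2 peaks.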

How the data were processed

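The 8 deposited peak lists give chromosome, start and end in 3 columns, without score, height or p-value; these coordinates, and no other values, were used. Per the submitters' processing notes, Bowtie and DiffBind were used, with build mm9. Peak caller, threshold, read depth and any pooling of the 2 Runx2 libraries per primary cell type are not given in the sources used here, so list sizes were not compared. A higher depth or a looser threshold lengthens a list and raises every overlap with it.

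Peaks were called overlapping at 1 bp or more, checked with bedtools 2.31.1. Shares have Wilson 95% intervals. Fisher's exact test (two-sided, with the conditional odds ratio) compared the classes, adjusted over 10 tests by Benjamini-Hochberg at a threshold of 0.05 (Python 3.11.15, NumPy 2.4.6, SciPy 1.17.1, statsmodels 0.14.6, matplotlib 3.10.9), and the code was tested on simulated data. Coordinates are printed 1-based in mm9. Regions are named by rule: the widest, first and last in the file, those with the closest centres, in the most or no other lists, in the densest windows and at the edge of the rule, with only some of each printed. The sites and lists were chosen with earlier results of these data known. A planned motif comparison was not run, because a genome of mm9 was not used here. ATAC, input and IgG libraries were not analysed here. No input or IgG library is labelled for Jun or for 3T3 cells at day 3.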

Additional observations from a re-analysis of the deposited data

Results flagged for a closer look

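For all 5 lists the odds ratio between chondrocyte Runx2 peaks with and without Foxa2 was nearer to 1 where osteoblasts also had Runx2 than where they did not. On the scale of percentage points the order differed between lists: the gap was larger at the common peaks for Jun and both GFP lists, and smaller for both lists named for Runx2. The difference between the odds ratios was tested with Zelen's exact test, adjusted over 5 lists, a comparison chosen after seeing the data. For Jun the odds ratio was 0.388 at Runx2 peaks common to both cell types (15.7% with Foxa2, 32.4% without) and 0.225 at chondrocyte-only peaks (3.73% and 14.7%), with an exact adjusted p of 0.00315. For the list named for Runx2 day 3 it was 0.471 and 0.314, with shares at chondrocyte-only peaks of 23.4% with Foxa2 and 49.3% without (exact adjusted p = 0.00111). For the list named for Runx2 day 0 it was 0.381 and 0.254, with chondrocyte-only shares of 16.8% and 44.2% (exact adjusted p = 0.00111).

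The odds ratios of the GFP lists had the same order. For GFP day 3 the odds ratio was 0.118 at common peaks and 0.0235 at chondrocyte-only peaks (0.331% with Foxa2, 12.4% without; exact adjusted p = 0.000977). For GFP day 0 it was 0.405 and 0.0379 (0.0828% and 2.14%; exact adjusted p = 0.00111), the chondrocyte-only value resting on 2 of 2416 peaks with Foxa2. In each of the 5 lists the ratio was below 1 in both classes of Runx2 peaks. The test covers counting error only, and the position of the peaks in their lists also differed between these classes.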

How the results depend on the processing

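The number of Foxa2 sites with Runx2 of both cell types was 388, 51 with the wider 50% of each list and 114 with the first 50%, and between 266 and 461 under the other alternatives. Of 124 alternative odds ratios, 113 kept their direction and side of the threshold. This count includes the exchange of the doubtful names, whose outcome was fixed in advance. It cannot alter Jun, Runx2 day 3 or GFP day 0, and only makes the values of Runx2 day 0 and GFP day 3 change places. Against chondrocyte Runx2 alone, Jun lost its call with the wider 50% (3.73), GFP day 3 lost it within parts of the partner's list (2.22), and GFP day 3 turned to 0 with the first 50%. Among common Runx2 peaks with against without Foxa2, calls were lost with the wider 50% for Jun (0.413), Runx2 day 3 (0.842), Runx2 day 0 (0.904) and GFP day 0 (0), with the first 50% for Jun (0.688) and GFP day 0 (0.403), with an overlap of 50% of the shorter peak for GFP day 0 (0.616) and within parts of the partner's list for GFP day 0 (0.723). Shorter lists leave fewer peaks to compare; the cause of each change was otherwise not tested. With the wider 50%, GFP day 3 met 1 of 51 sites and 0 of 810 with chondrocyte Runx2 alone and GFP day 0 met none of either, so no odds ratio is given. No paired analysis was possible because each group was represented by 1 list. Depth was not given, so a site missing from a list cannot be told apart from one below its threshold.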
